A study of Mus musculus with 6 samples.

Results

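The genes of MHC class I antigen presentation were examined in bulk RNA-seq of mouse vestibular epithelium after chronic ototoxic exposure. They were the 10 genes of the count table with the symbols H2-K1, H2-D1, B2m, Tap1, Tap2, Tapbp, Psmb8, Psmb9, Psmb10 and Nlrc5, out of 52636 genes. Male 129S1/SvImJ mice, 2 to 4 months old, drank either plain water (Control, n = 3) or water with 30 mM of the ototoxic nitrile 3,3'-iminodipropionitrile (IDPN, n = 3) for 8 weeks. Each library came from 1 animal, whose 2 utricles and 6 cristae (vestibular sensory organs) were pooled as whole tissue. In such tissue, fewer cells of a type and less RNA per cell cannot be told apart. All libraries had 1 batch label. The title codes of the 3 Control animals had a stem in common that no IDPN animal carried, so that any effect of it cannot be told apart from the treatment. IDPN 2 and IDPN 3 had another stem in common, and IDPN 1 had a stem of its own.

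MHC class I molecules display short peptides from inside the cell on its surface, where cytotoxic T cells and natural killer cells read them. Proteasomes cut proteins into peptides, the TAP transporter carries the peptides into the endoplasmic reticulum, and tapasin helps to load them onto a heavy chain paired with beta-2-microglobulin. Interferons raise the transcription of most genes of this pathway, including the immunoproteasome subunits that take the place of the standard catalytic subunits. In neural tissue the pathway is usually kept low.

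Tap1 was upregulated after IDPN, with a fold change of 1.91 (log2-Fold_Change 0.93, SE 0.21, n = 3 per group, DESeq2 Padj = 0.000465). It was the 1 gene of the 10 that was called, and none was called downregulated. A call required a Benjamini-Hochberg adjusted p (Padj) under 0.05 and a fold change above 1.5 in the DESeq2 Wald test. Among all 17650 genes with a Padj, 410 (2.32%) were called upregulated and 604 (3.42%) downregulated. All 10 genes had a Padj. The median log2-Fold_Change was 0.23 over the 10 genes, with 8 above 0 and 2 below, and 0.02 over all genes tested. At an unadjusted p under 0.05, 1 of the 10 was higher and 0 were lower, where 7.77% of all genes tested were higher and 9.15% lower. The edgeR quasi-likelihood test also called 1 higher (Tap1) and 0 lower, against 1.02% and 2.19% of the 16310 genes it tested.

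The sequences around the transcription starts of 4 of the genes are shown because they cover the heavy chains, their light chain and the gene that was called. Promoter sequences from RefSeq were used for 8 of the 10 genes, and those of Tap2 and Nlrc5 were not analysed here. Each line runs from 250 bases before the start to 30 bases after it (RefSeq, GRCm38.p6). For each gene, the RefSeq start nearest to the gene start in GENCODE was used. The windows of H2-D1, Tapbp, Psmb8 and Psmb9 still lie inside the gene intervals given below. Capitals mark matches on either strand to the interferon regulatory factor core AANNGAAA, the kappaB motif, TGACG and CCAAT. H2-K1 is read from the minus strand of chr17:34000318-34000597, and the others from the plus strand of chr17:35262844-35263123 (H2-D1), chr2:122147437-122147716 (B2m) and chr17:34187306-34187585 (Tap1).
H2-K1: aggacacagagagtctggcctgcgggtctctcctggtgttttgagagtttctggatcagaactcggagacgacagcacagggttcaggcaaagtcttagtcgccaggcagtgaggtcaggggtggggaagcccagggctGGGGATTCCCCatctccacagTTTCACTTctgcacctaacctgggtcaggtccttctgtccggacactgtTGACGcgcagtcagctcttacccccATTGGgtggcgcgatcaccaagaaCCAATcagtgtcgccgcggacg
H2-D1: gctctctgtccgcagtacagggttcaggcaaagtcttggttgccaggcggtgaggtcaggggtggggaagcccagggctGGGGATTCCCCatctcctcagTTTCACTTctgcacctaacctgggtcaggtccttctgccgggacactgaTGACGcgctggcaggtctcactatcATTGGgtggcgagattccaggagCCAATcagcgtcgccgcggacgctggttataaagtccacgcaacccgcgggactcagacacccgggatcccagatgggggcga
B2m: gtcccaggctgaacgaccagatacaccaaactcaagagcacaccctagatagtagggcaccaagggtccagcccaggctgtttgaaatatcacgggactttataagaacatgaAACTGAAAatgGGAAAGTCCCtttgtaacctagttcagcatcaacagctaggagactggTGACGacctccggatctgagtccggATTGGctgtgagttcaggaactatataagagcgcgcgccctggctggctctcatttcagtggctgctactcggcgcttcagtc
Tap1: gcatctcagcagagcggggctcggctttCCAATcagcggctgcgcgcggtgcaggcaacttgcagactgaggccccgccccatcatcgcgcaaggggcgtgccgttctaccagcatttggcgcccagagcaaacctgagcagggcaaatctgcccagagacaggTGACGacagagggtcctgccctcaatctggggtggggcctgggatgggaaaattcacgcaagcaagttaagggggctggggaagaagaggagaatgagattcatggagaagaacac

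The H2-K1 and H2-D1 sequences had 192 identical bases among 219 aligned (87.7%). Their annotated starts lie at different points of this alignment, with TGACG at -41 from the start in H2-K1 and at -101 in H2-D1. In the full windows of 300 bases, AANNGAAA was found in 3 of the 8 genes (H2-K1, H2-D1 and B2m), against 23.9% of 32851 promoter windows of the same length. The kappaB motif was found in the same 3 genes, against 8.46% of windows. The longer interferon-stimulated response element (ISRE), every match of which contains AANNGAAA, was found in B2m alone of the 8, against 3.44% of windows. TTCNNNGAA, the gamma-activated form, matched in Psmb8 alone, against 8.30%. TGACG was found in 5 of the 8 genes, against 20.8% of windows, and CCAAT in 6, against 37.4%. For both motifs, the matches in Tap1 and Psmb9 are the same bases, which are counted for each gene. The Tap1 window held TGACG and CCAAT, but no match to AANNGAAA or kappaB. It shared 275 of its 300 bases with the window of Psmb9, which is read from the opposite strand from a start 226 bases away. These matches are a description of the letters in each window only.

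The heavy chains H2-K1 and H2-D1 were highly expressed in every library. H2-K1 (ENSMUSG00000061232.15, chr17:33996017-34000347, minus strand, GRCm38) encodes the classical K heavy chain. Its normalized counts, which are estimated counts divided by the DESeq2 size factor, were 30206, 26554 and 17725 among Controls 1 to 3, against 24701, 41126 and 29639 after IDPN (animals 1 to 3). The groups overlapped, with IDPN 2 highest and Control 3 lowest. The means were 24828 ± 6417 and 31822 ± 8427 (SD, n = 3), with a log2-Fold_Change of 0.36 (SE 0.23, 95% interval -0.09 to 0.80), and the DESeq2 Padj was 0.453. The value fell to 0.13 without IDPN 2 and 0.17 without Control 3. H2-K1 was called when libraries were scaled by their total counts instead (log2-Fold_Change 0.62, DESeq2 Padj = 0.0499), which made 2 of the 10 genes upregulated and 0 downregulated, against 3.64% and 1.28% of all genes. That scaling raised the median log2-Fold_Change of all genes by 0.25.

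H2-D1 (ENSMUSG00000073411.11, chr17:35262730-35267499, plus strand) encodes the classical D heavy chain. Normalized counts were 35082, 31336 and 21949 among Controls, against 27708, 43957 and 32342 after IDPN. The 6 libraries fell in the same order as for H2-K1, and the groups overlapped. The log2-Fold_Change was 0.24 (SE 0.21, 95% interval -0.19 to 0.66), and the DESeq2 Padj was 0.661. Without IDPN 2 the value was 0.03, and without Control 3 it was 0.06. Total-count scaling gave 0.49 without a call (DESeq2 Padj = 0.125). Heavy chain transcripts are similar in sequence, but 98.6% of the 76-base stretches of H2-K1 and 93.1% of those of H2-D1 occurred in no other gene. Added together and tested as 1 gene, the heavy chains had a log2-Fold_Change of 0.29 (SE 0.22, 95% interval -0.14 to 0.72, DESeq2 Padj = 0.560). The difference in mean log2 of the summed normalized counts, also 0.29, was 0.08 without Control 3 and 0.10 without IDPN 2.

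B2m (ENSMUSG00000060802.8, chr2:122147686-122153083, plus strand) encodes the light chain that all class I heavy chains need to reach the surface. Its normalized counts were 30656, 31698 and 19315 among Controls, against 18771, 33506 and 25258 after IDPN. IDPN 1 was the lowest library and IDPN 2 the highest, so the groups overlapped widely. The log2-Fold_Change was -0.07 (SE 0.23, 95% interval -0.53 to 0.38, DESeq2 Padj = 0.931) and changed sign to 0.18 with total-count scaling. For these 3 genes the low libraries Control 3 and IDPN 1 were also those with the highest size factors, 1.12 and 1.21.

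**Figure D1:**
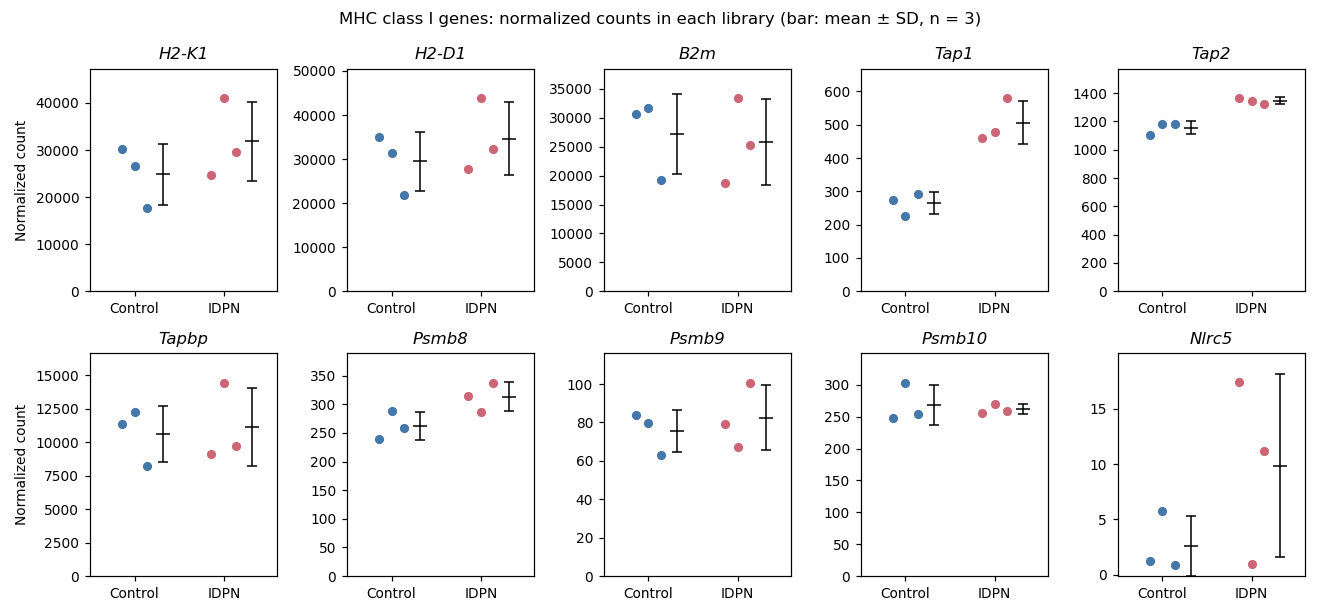
Normalized count (y axis) of each of the 10 genes in 3 Control (blue) and 3 IDPN (red) libraries, one point per library, with bars for the mean ± SD. The groups are separate for Tap1 (227 to 292 against 461 to 581) and Tap2 (1107 to 1182 against 1321 to 1368), and overlap for the other 8 genes.

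The subunits of the peptide transporter were the genes whose libraries separated by group. Tap1 (ENSMUSG00000037321.17, chr17:34187553-34197225, plus strand) encodes one half-transporter. Normalized counts were 275, 227 and 292 among Controls, against 461, 477 and 581 after IDPN, so that the lowest IDPN library lay above the highest Control library. The means were 265 ± 33.5 and 506 ± 65.4 (SD, n = 3), and the 95% interval of the log2-Fold_Change ran from 0.52 to 1.35. The estimated counts themselves were 227, 197 and 328 among Controls, against 557, 475 and 623 after IDPN. Tap1 was called by edgeR (adjusted p = 0.0191), with total-count scaling (log2-Fold_Change 1.17, DESeq2 Padj = 0.00126) and without any 1 of the 6 libraries (log2-Fold_Change 0.82 to 1.01, DESeq2 Padj 0.000394 to 0.0183). It was not called when the DESeq2 test was made against a fold change of 1.5 (Padj = 1), a test that called 0.178% of all genes upregulated and 0.582% downregulated.

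Tap2 (ENSMUSG00000024339.12, chr17:34203527-34216321, plus strand), the partner half-transporter, had normalized count values of 1107, 1182 and 1181 among Controls, against 1368, 1347 and 1321 after IDPN. Every IDPN library lay above every Control library, and the spread within each group was small (1157 ± 42.7 and 1345 ± 23.8, SD, n = 3). The log2-Fold_Change was 0.22 (SE 0.15, 95% interval -0.08 to 0.51), and Tap2 was not called (DESeq2 Padj = 0.511, edgeR adjusted p = 0.348). Libraries separated in this direction for 2 of the 10 genes, Tap1 and Tap2, against 11.1% of all genes tested, and in the other direction for 0 of the 10, against 11.4%. With total-count scaling they separated upwards for 5 of the 10 (H2-K1, H2-D1, Tap1, Tap2 and Tapbp), against 19.3% of all genes, and downwards for 0, against 3.99%.

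Tapbp (ENSMUSG00000024308.14, chr17:33915899-33929292, plus strand) encodes tapasin, which bridges TAP and the empty heavy chain. Its normalized counts were 11328, 12249 and 8212 among Controls, against 9126, 14442 and 9739 after IDPN. IDPN 2 was again highest, and the other IDPN libraries lay within the Control range. The log2-Fold_Change was 0.07 (SE 0.21, 95% interval -0.35 to 0.48, DESeq2 Padj = 0.932). Of the 76-base stretches of Tapbp, 16.4% also occurred in the overlapping gene Gm19412, and the library kit did not mark strand.

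The immunoproteasome subunits showed no called change. Psmb8 (ENSMUSG00000024338.14, chr17:34197721-34201454, plus strand), which takes the place of Psmb5, had normalized count values of 239, 289 and 258 among Controls, against 314, 287 and 338 after IDPN. The lowest IDPN library fell just below the highest Control library, and the log2-Fold_Change was 0.26 (SE 0.21, 95% interval -0.16 to 0.67, DESeq2 Padj = 0.611). Psmb9 (ENSMUSG00000096727.2, chr17:34181987-34187764, minus strand), which takes the place of Psmb6, had 83.7, 79.6 and 63.2 among Controls, against 79.4, 67.3 and 101 after IDPN. These overlapped, and the log2-Fold_Change was 0.13 (SE 0.34, 95% interval -0.54 to 0.80, DESeq2 Padj = 0.912). Psmb10 (ENSMUSG00000031897.9, chr8:105935735-105938444, minus strand), which takes the place of Psmb7, had 247, 304 and 254 among Controls, against 257, 270.1 and 259 after IDPN. The IDPN libraries lay inside the Control range, with a log2-Fold_Change of -0.03 (SE 0.21, 95% interval -0.45 to 0.39, DESeq2 Padj = 0.968) that turned to 0.22 with total-count scaling.

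Nlrc5 (ENSMUSG00000074151.13, chr8:94434356-94527272, plus strand), the transactivator of class I genes, was close to the detection limit. Its estimated counts were 1, 5 and 1 among Controls, against 21, 1 and 12 after IDPN. IDPN 1 and IDPN 3 were above all Control libraries and IDPN 2 was not. The log2-Fold_Change was 1.94 with an SE of 1.30 and a 95% interval of -0.61 to 4.48 (DESeq2 Padj = 0.488), so a difference was not detectable at this depth. The edgeR filter on low counts removed this gene.

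**Figure D2:**
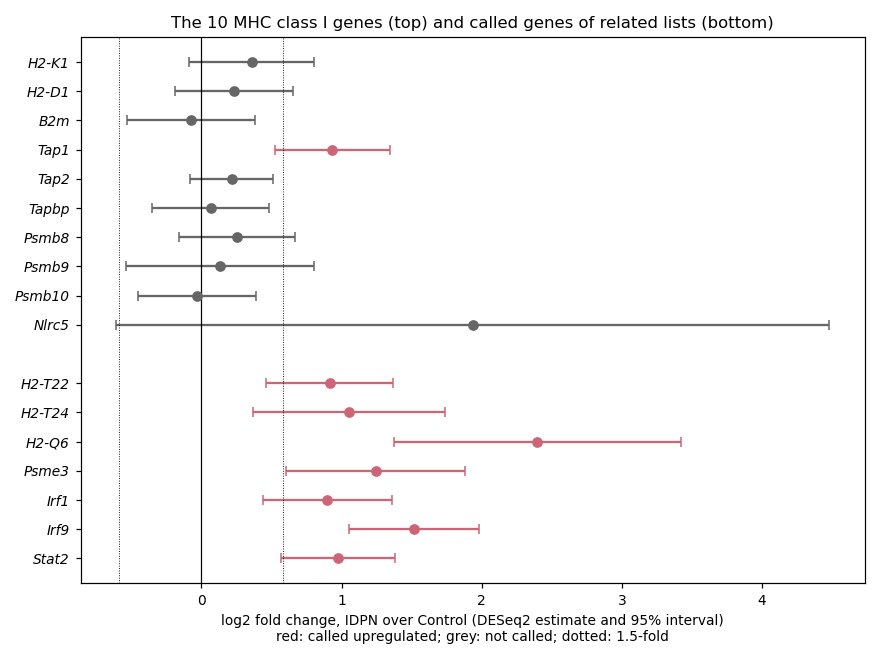
DESeq2 log2-Fold_Change of IDPN over Control (x axis) with its 95% interval for the 10 genes (upper part) and for the called genes of the related lists (lower part), with dotted lines at 1.5-fold. Tap1 (0.93) is the 1 called gene of the upper part, and the Nlrc5 interval (-0.61 to 4.48) is the widest.

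Levels were compared between genes as TPM, which are estimated counts per transcript length scaled to the library total. Like total-count scaling, which raised the median log2-Fold_Change of all genes by 0.25, TPM rest on a library total. TPM were therefore read for the order of genes within a group, and differences between the groups were not tested on them. B2m was highest, at 1128 ± 112 TPM in Control and 1374 ± 221 in IDPN (SD, n = 3). H2-K1 (546 ± 52.6 and 901 ± 125 TPM) and H2-D1 (501 ± 32.5 and 758 ± 87.9 TPM) came next, with ranges that overlapped each other in both groups. Tapbp followed at 131 ± 8.74 TPM in Control and Tap2 at 12.4 ± 2.68 TPM. Psmb10 (7.49 ± 1.34 TPM) and Psmb8 (5.92 ± 1.21 TPM) overlapped each other in Control and in IDPN. Tap1 lay below Psmb8 in Control, at 3.33 ± 0.982 TPM, and its range overlapped that of Psmb8 in IDPN (8.02 ± 1.27 and 9.03 ± 1.58 TPM). Psmb9 (2.02 ± 0.0726 TPM) and Nlrc5 (0.0120 ± 0.0117 TPM) were lowest in Control. The standard subunits that the immunoproteasome subunits replace were far higher, with Control means of 84.3 TPM for Psmb5, 198 for Psmb6 and 69.7 for Psmb7.

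**Figure D3:**
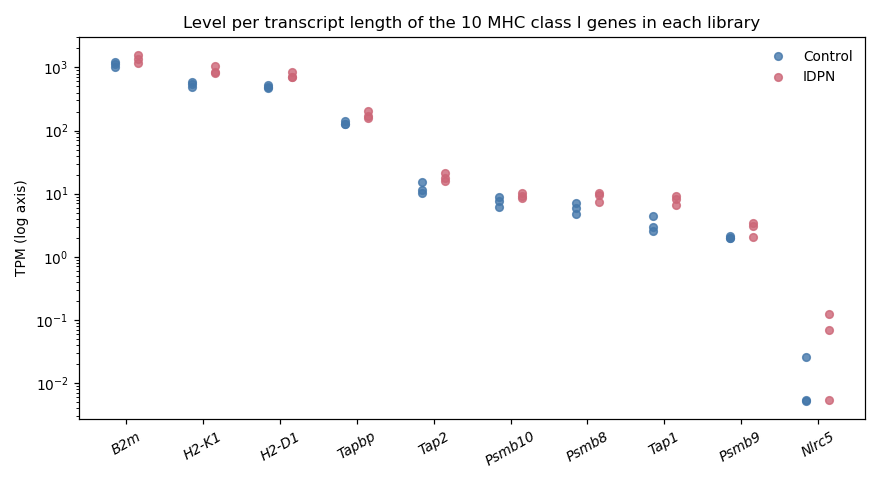
TPM on a log axis (y axis) of the 10 genes in each of 3 Control (blue) and 3 IDPN (red) libraries, ordered by the Control mean (x axis). The levels run from 1128 TPM for B2m to 0.0120 TPM for Nlrc5 in Control, and only Tap1 changes from below to within the range of its neighbour Psmb8 in IDPN.

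Ratios within a library do not depend on how libraries are scaled, so 7 of them were compared together with the summed heavy chain count, as 8 two-sided exact permutation tests. With 3 against 3 libraries such an exact permutation test cannot go below p = 0.1. The ratio of Tap1 to Psmb9, the neighbour that shares its promoter region, was 3.29, 2.86 and 4.62 among Controls, against 5.80, 7.09 and 5.77 after IDPN. The IDPN libraries were all higher, by 0.82 on the log2 scale (exact permutation p = 0.1, adjusted 0.2). Tap1 and Psmb9 overlap on opposite strands, and 10.7% of the 76-base stretches of Psmb9 also occurred in Tap1.

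The ratio of Tap1 to Tap2, its partner in the transporter, was 0.249, 0.192 and 0.247 among Controls, against 0.337, 0.354 and 0.440 after IDPN. It too was higher in every IDPN library, by 0.72 on the log2 scale (exact permutation p = 0.1, adjusted 0.2). H2-K1 to H2-D1 was 0.861, 0.847 and 0.808 among Controls, against 0.891, 0.936 and 0.916 after IDPN. The shift of 0.13 on the log2 scale was small, but larger than the spread in either group (SD 0.05 and 0.03, exact permutation p = 0.1, adjusted 0.2). Summed heavy chains to B2m was 2.13, 1.83 and 2.05 among Controls, against 2.79, 2.54 and 2.45 after IDPN. The heavy chains were higher relative to B2m in all 3 IDPN libraries, by 0.37 on the log2 scale (exact permutation p = 0.1, adjusted 0.2). These 4 ratios were chosen after seeing the data, so their separation between the groups is a description only. The adjustment ran over all 8 tests with these included, so the adjusted p of the other ratios depends on that choice.

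Each immunoproteasome subunit was also set against the standard subunit it replaces. Psmb8 to Psmb5 was 0.106, 0.128 and 0.145 among Controls, against 0.181, 0.133 and 0.177 after IDPN. IDPN 2 lay within the Control range, and the difference was 0.37 on the log2 scale (exact permutation p = 0.2, adjusted 0.32). Psmb9 to Psmb6 differed by -0.01 (exact permutation p = 1) and Psmb10 to Psmb7 by 0.08 (exact permutation p = 0.7, adjusted 0.8), and both overlapped between groups.

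**Figure D4:**
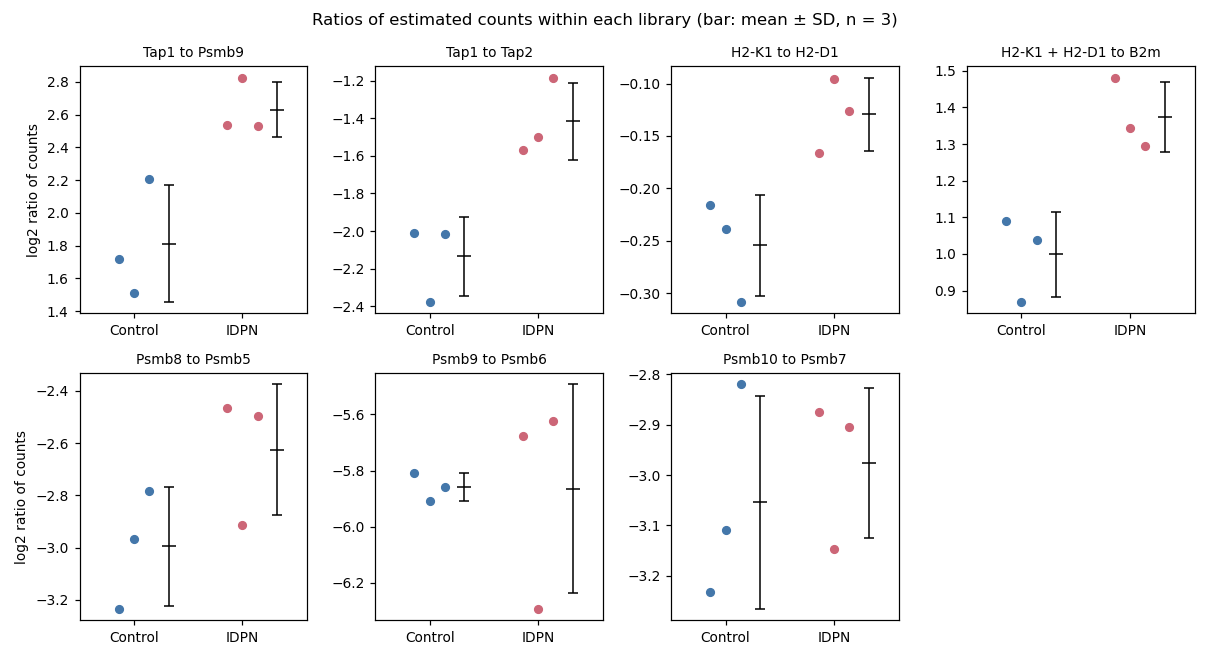
log2 ratio of estimated counts (y axis) of the named genes within each library, for 3 Control (blue) and 3 IDPN (red) libraries, with bars for the mean ± SD. The 4 ratios of the upper row, which were chosen after seeing the data, are higher in every IDPN library. The 3 immunoproteasome ratios of the lower row overlap between groups.

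Further genes of the pathway were taken as lists. Of 21 other class I and class I-like chains, 17 had a Padj, of which 3 were upregulated and 0 downregulated (median log2-Fold_Change 0.07). The shares of all genes were 2.32% and 3.42%. H2-Q6, a Qa-2 family chain, had normalized count values of 8.49, 18.5 and 24.9 among Controls, against 43.9, 129.5 and 104 after IDPN. The groups were separate and the log2-Fold_Change was 2.40 (SE 0.52, DESeq2 Padj = 0.000264, edgeR adjusted p = 0.0389), and the call held in all 6 fits that left out 1 library. H2-T22, a ligand of gamma-delta T cells, had 317, 310.5 and 309.6 among Controls, against 440.3, 761 and 566 after IDPN. All IDPN libraries were higher (log2-Fold_Change 0.91, SE 0.23, DESeq2 Padj = 0.00258, edgeR adjusted p = 0.0369). Without IDPN 2 its log2-Fold_Change was 0.69 and the call was lost (DESeq2 Padj = 0.0512).

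H2-T24 had 106, 128 and 97.9 among Controls, against 175, 368 and 144 after IDPN, with IDPN 2 far above the rest. Its log2-Fold_Change was 1.05 (SE 0.35, DESeq2 Padj = 0.0440), edgeR did not call it (adjusted p = 0.146), and without IDPN 2 it was 0.53 (DESeq2 Padj = 0.478). The call was also lost without IDPN 1 or any 1 Control library. H2-T23, the Qa-1 chain read by natural killer cell receptors, had 5149.7, 5275 and 2779 among Controls, against 3548, 6479 and 3840.3 after IDPN, which overlapped (log2-Fold_Change 0.07, DESeq2 Padj = 0.941). Only 74.5% of the stretches of H2-T22 and 79.4% of those of H2-Q6 were unique to the gene, so the split of reads among these paralogs is uncertain.

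None of the 12 genes of peptide trimming and loading was called by DESeq2 or edgeR (median log2-Fold_Change -0.09, 1 lower and 0 higher at an unadjusted p under 0.05, a threshold met by 9.15% and 7.77% of all genes). They include the chaperones of the endoplasmic reticulum Pdia3 (log2-Fold_Change -0.20), Calr (-0.21) and Canx (-0.12). None of the 3 standard catalytic subunits or the 16 other genes of the 20S core and its assembly was called by DESeq2 or edgeR either, with 0 at an unadjusted p under 0.05. All 16 of the latter had values below 0 (median log2-Fold_Change -0.20, which was 0.06 with total-count scaling). Of the 4 proteasome activators, 1 (Psme3) was upregulated and 0 downregulated, against 2.32% and 3.42% of all genes. Psme3 encodes the nuclear activator PA28 gamma, which is not part of the interferon-induced PA28 of Psme1 and Psme2. It had 164, 347 and 592 among Controls, against 839, 988 and 789.5 after IDPN (log2-Fold_Change 1.24, SE 0.33, DESeq2 Padj = 0.00455). The Control libraries were spread widely, edgeR did not call it (adjusted p = 0.105), and DESeq2 lost the call on leaving out Control 2 (Padj = 0.0743) or IDPN 2 (Padj = 0.425). Psme1 (-0.06) and Psme2 (0.13) were not called.

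Among 22 genes of class I transcription and interferon signalling, 3 were upregulated and 0 downregulated (median log2-Fold_Change 0.13), against 2.32% and 3.42% of all genes. Irf9, a DNA-binding factor of the response to type I interferon, had normalized count values of 676, 728 and 819 among Controls, against 1393, 2869.5 and 2105 after IDPN. The groups were far apart (log2-Fold_Change 1.52, SE 0.24, DESeq2 Padj = 2.53e-08). Its partner Stat2 also rose (log2-Fold_Change 0.98, DESeq2 Padj = 0.000150), and edgeR called both (adjusted p = 0.00763 and 0.0187). Irf1, a direct activator of Tap1 and Psmb9, had 432, 323 and 468 among Controls, against 796, 552 and 934 after IDPN. These did not overlap (log2-Fold_Change 0.90, SE 0.24, DESeq2 Padj = 0.00465), but edgeR did not call it (adjusted p = 0.0569), nor did DESeq2 without Control 2 (Padj = 0.0892) or IDPN 3 (Padj = 0.112). The other 19 genes were not called, among them Rfx5, a subunit of the enhanceosome at class I promoters (log2-Fold_Change 0.31, DESeq2 Padj = 0.569), and the interferon gamma receptor chain Ifngr1 (0.10, DESeq2 Padj = 0.808).

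None of the 6 MHC class II genes, which present peptides from outside the cell, was called by DESeq2 or edgeR, and all had values below 0 (median log2-Fold_Change -0.21, which was 0.04 with total-count scaling). Cd74, the invariant chain, had a log2-Fold_Change of -0.05 and overlapping groups. H2-Eb1 was lowest, at 439, 405 and 374 among Controls, against 137, 318 and 264 after IDPN (log2-Fold_Change -0.76, DESeq2 Padj = 0.0902). It was the 1 gene of the 6 at an unadjusted p under 0.05, where 9.15% of all genes tested were lower. Without IDPN 2, H2-Eb1 was called downregulated, as were 569 of all genes. Of 11 receptors for class I, 5 had a Padj and 0 were called by DESeq2 or edgeR, with 1 higher at an unadjusted p under 0.05 (7.77% of all genes). That gene, the inhibitory receptor Pirb, had 20, 22 and 21 estimated counts in Control and 52, 59 and 50 in IDPN (log2-Fold_Change 1.13, DESeq2 Padj = 0.151). The T cell coreceptor Cd8a was at 0 in every Control library and at 7, 5 and 2 estimated counts in IDPN, whereas Cd8b1, Klrd1 and Klrc1 were at 0 in all 6 libraries.

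Cell types that could carry class I transcripts were read from marker lists. At an unadjusted p under 0.05, the share of all genes was 7.77% higher and 9.15% lower. Of 13 macrophage markers, 11 had values above 0 (median log2-Fold_Change 0.50) and 0 were called by DESeq2 or edgeR, with 5 higher at that unadjusted threshold. The complement gene C1qc was called with total-count scaling (log2-Fold_Change 1.07, DESeq2 Padj = 0.00745) and without Control 2. The summed normalized counts of the macrophage list were 2442 to 3335 in Control and 2998 to 4306 in IDPN. Of 14 lymphocyte markers, 4 (Cd8b1, Gzma, Gzmb and Nkg7) were at 0 in every library, 2 had a Padj and 0 were called by DESeq2 or edgeR (1 lower at an unadjusted p under 0.05). Their sums, 159 to 270 in Control and 143 to 182 in IDPN, came mostly from the B cell gene Cd79a (124 to 226 and 111 to 164).

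Of 8 endothelial markers, 1 (Kdr) was downregulated (3.42% of all genes), and the sums were 6893 to 11655 and 6693 to 9932. At an unadjusted p under 0.05, 2 were higher and 1 was lower, against 7.77% and 9.15% of all genes. With total-count scaling Kdr was not called (log2-Fold_Change -0.88, DESeq2 Padj = 0.0780), and Tie1 was upregulated instead (0.89, DESeq2 Padj = 0.0323). Tie1 was also called upregulated, beside Kdr, with a minimum of 10 counts in 3 libraries, with protein-coding genes only and without Control 3. Hair cell (HC) markers, which define the labelled tissue, were at 38557 to 42778 in Control and 25898 to 29379 in IDPN. Of these, 5 of 10 were downregulated by DESeq2, 4 by edgeR and 3 with total-count scaling (Otof and Tmc1 were lost). The shares of all genes were 3.42%, 2.19% and 1.28%. Without each library in turn, 4 to 6 of the 10 were downregulated. Supporting cell markers were at 120087 to 135461 and 92944 to 105761, with 7 of 9 values below 0 (median log2-Fold_Change -0.18). Only Sox10 was called (upregulated), against 2.32% of all genes upregulated and 3.42% downregulated. Otog was called lower when no fold threshold was set, as were 689 of all genes. At an unadjusted p under 0.05, 1 of the 9 was higher and 2 were lower. The Schwann cell list (5 markers) had 0 called by DESeq2 or edgeR, with 2 lower at an unadjusted p under 0.05, and 2 called lower without Control 3. The stromal list (6 markers) had 0 called by DESeq2 or edgeR, with 1 higher at an unadjusted p under 0.05, while Col1a2 was upregulated with total-count scaling (log2-Fold_Change 0.71, DESeq2 Padj = 0.0132). Of 5 erythroid markers, 4 were upregulated by DESeq2, 0 by edgeR and 5 with total-count scaling, against 2.32%, 1.02% and 3.64% of all genes. Without each library in turn, 0 to 4 of the 5 were upregulated. The part of these cell types in the Tap1 difference was not tested.

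**Figure D5:**
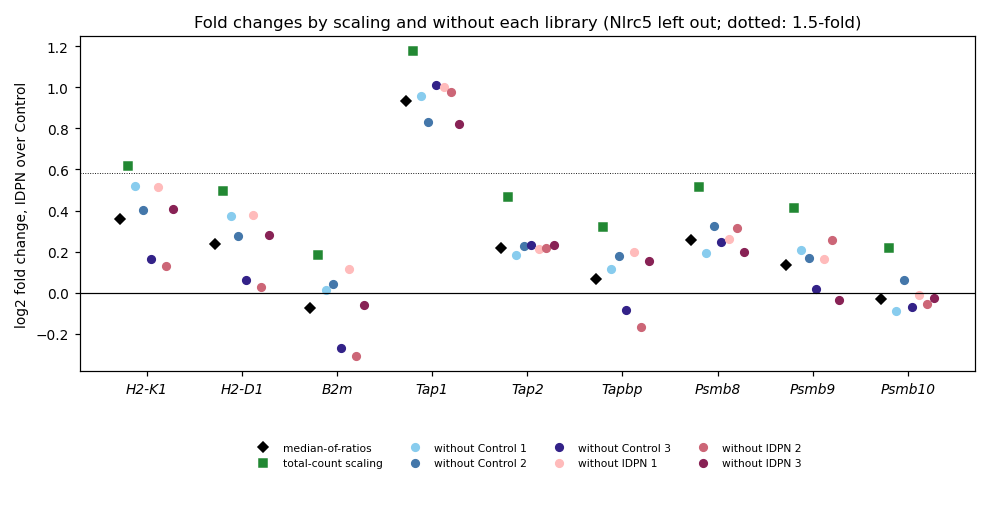
log2-Fold_Change of IDPN over Control (y axis) of 9 of the genes with median-of-ratios scaling (diamonds), with total-count scaling (squares) and without each library in turn (circles), with a dotted line at 1.5-fold. Tap1 stays between 0.82 and 1.17, whereas B2m, Tapbp, Psmb9 and Psmb10 take values on both sides of 0.

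The share of all counts taken by the 10 genes was 0.213%, 0.212% and 0.180% in Control and 0.241%, 0.310% and 0.264% in IDPN, almost all of it from H2-K1, H2-D1, B2m and Tapbp. These shares rest on library totals, as TPM do, and their difference between the groups was not tested. Totals lay between 40474847 and 43566332 estimated counts per library, and low counts limited Nlrc5 and the lymphocyte genes. Other genes were compared with the mean standardized value of 9 of the 10 (Nlrc5 left out for low counts). The highest Pearson's r over the 6 libraries was sought among 11762 genes. The 9 did not share 1 pattern, with r between them from -0.35 (Tap1 and Psmb10) to 0.99 (H2-K1 and H2-D1). The nearest to that mean were Nptxr (r = 0.992), Cryl1 (0.988), Mdm1 (0.987), Hmg20b (0.986) and Syngr1 (0.985). These are the top values of many candidates, and a description over 6 points that share their scaling.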

How the data were processed

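Bulk RNA-seq libraries of vestibular epithelium (3 Control, 3 IDPN, 1 animal each) were prepared by SMART-seq2, with oligo-dT priming, no molecular identifiers and no strand information, from 6 to 11 ng of RNA. The authors aligned 76-base paired reads to GRCm38 with STAR 2.5.3a and estimated counts with RSEM 2.3.0. The deposited expected counts were whole numbers, neither normalized nor filtered. GRCm38 is a C57BL/6J genome, whereas the mice were 129S1/SvImJ. RSEM divides reads that fit several genes, which makes paralogs and overlapping genes uncertain.

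Groups followed the treatment label. All 52636 genes were fitted with the DESeq2 1.42.0 Wald test (R 4.3.3, median-of-ratios size factors 0.825 to 1.21, no covariate), the test named in the study's methods, with Padj over all genes tested. The edgeR 4.0.16 quasi-likelihood test was an alternative, beside TMM or total-count scaling, a minimum of 10 counts in 3 libraries, the independent and Cook's filters off, a test against 1.5-fold, no fold threshold, protein-coding genes only and each library left out. Total estimated counts were 40474847 to 43566332 per library, and counting error understates the true error. The 6 libraries are separate animals by label. Positions, transcript lengths and 76-base stretches came from GENCODE M21 (a later release than the authors' M15) and promoters from RefSeq. Ratios within a library were taken as log2 with no pseudocount in the reported values, and with a pseudocount of 1 as an alternative. The code was tested on simulated counts. The 10 genes and all lists were chosen with earlier results of these data known. Named genes were the 10 genes, the called genes of each pathway list and, where few were called, up to 4 of its most abundant members. Rfx5, H2-Eb1, Cd8a, Cd8b1, Klrd1, Klrc1 and the marker genes fell outside this rule and were named after their values were seen. One gene of the interferon signalling list is not reported here and was left out of the list's counts.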

Additional observations from a re-analysis of the deposited data

How the results depend on the processing

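Over the 148 fits of a single gene's log2-Fold_Change, no called value changed sign, while the uncalled values of B2m, Tapbp, Psmb9 and Psmb10 took both signs. H2-K1 passed the threshold with total-count scaling (0.62), and Tap1 lost its call in the test against 1.5-fold. Of the 10 genes, 2 were called upregulated with total-count scaling and 0 in the test against 1.5-fold (a stricter test by construction), and 1 in each of the 6 fits without 1 library. Over all genes, edgeR called 166 upregulated and 357 downregulated, against 410 and 604 by DESeq2 with median-of-ratios scaling. Total-count scaling gave 609 upregulated and 214 downregulated, and the test against 1.5-fold gave 34 and 111. Without each library in turn, 234 (without IDPN 2) to 611 (without Control 3) were upregulated and 436 to 720 downregulated. Other class I chains then had 1 (without IDPN 2) to 3 called. Proteasome activators had 0 called by edgeR and 0 (without Control 2 or IDPN 2) to 1 without each library, and MHC class II had 0 to 1 (without IDPN 2). The cause of these shifts was not tested. Ratios and the heavy chain sum moved by less than 1 pooled SD of the groups under every alternative run for them, but Psmb9 to Psmb6 ran from -0.13 (without IDPN 3) to 0.21 (without IDPN 2). Low counts limited Nlrc5, which the edgeR filter and the minimum of 10 counts in 3 libraries removed. No paired analysis was possible because the labels give no replicate numbers shared between the groups.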
